A study of Canis lupus familiaris with 36 samples.

Results

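CCL2, IL6, SELP and KDM6B, 4 of the 44 immune genes on a canine NanoString panel, were followed across 34 oral squamous cell carcinoma (OSCC) tumors and 2 mucosal stroma samples from dogs. The genes were chosen by name, from earlier results on these values, for how they varied together across tumors and for how far apart the mucosal stroma samples lay. Those measures are therefore given here as descriptions without a test. Tumors were labelled as tumor and the comparison tissue as mucosal stroma, with no treatment, breed or age recorded for a sample in the labels. The tissue had been archived frozen or formalin-fixed, and the labels do not show which sample was which. The study counted fewer dogs than samples, and 1 dog gave both tissues, but the labels do not show which samples share a dog, and p-values measure the spread between samples. The panel holds no gene that defines epithelium or fibroblasts, so the labelled tissue could not be checked against such markers.

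CCL2 is a chemokine that draws monocytes from the blood into inflamed tissue. IL6 is a cytokine of acute inflammation that signals through gp130 and STAT3 and is made by fibroblasts, endothelium, myeloid cells and some tumor cells. SELP encodes P-selectin, which activated endothelium and platelets place on their surface so that leukocytes can roll along the vessel wall. KDM6B (also called JMJD3) is a histone demethylase that removes the repressive trimethyl mark of histone H3 lysine 27, and inflammatory signals can induce it in macrophages. In oral mucosa, the secreted and adhesion genes of this group are known as parts of the local response to injury and microbes.

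The authors' values are counts scaled so that 4 housekeeping genes have the same geometric mean in every sample, and they are given here on the log2 scale. Recovered total counts over the panel were between 27092 and 665587 in tumors and were 117883 and 149876 in mucosal stroma. Positive control POS_B exceeded POS_C at least 2.59-fold in 9 samples, namely 7 tumors and both mucosal stroma samples, and at most 1.77-fold in the other 27 tumors. These sets are called the high and the low control ratio samples. Values come from whole tissue, so fewer cells of a type and less RNA per cell cannot be told apart.

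No tumor was below its background for any of the 4 genes, and the count nearest to it was that of SELP in the tumor of patient 19, at 25 against a background of 12.2. CCL2 went from 9.88 (tumor of patient 2) through a median of 12.35 to 14.24 (tumor of patient 26). IL6 went from 5.93 (tumor of patient 34) through a median of 9.37 to 12.27 (tumor of patient 28). SELP went from 5.39 (tumor of patient 19) through a median of 7.82 to 9.82 (tumor of patient 28). IL6 and SELP thus shared the tumor with the highest level. KDM6B went from 9.75 (tumor of patient 1) through a median of 11.18 to 13.64 (tumor of patient 20).

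The tumors spread most in the cytokine and least in the demethylase. On the log2 scale the mean ± SD over 34 tumors was 12.36 ± 1.00 for CCL2, 9.36 ± 1.60 for IL6, 7.67 ± 0.95 for SELP and 11.25 ± 0.72 for KDM6B. The SD of IL6 ranked 4 among the 44 immune genes, and its lowest and highest tumors lay 81.2-fold apart. The span was 20.5-fold for CCL2, 21.6-fold for SELP and 14.9-fold for KDM6B, whose SD ranked 38. Levels of different genes are not ranked against each other here, because each probe counts with its own efficiency.

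**Figure D1:**
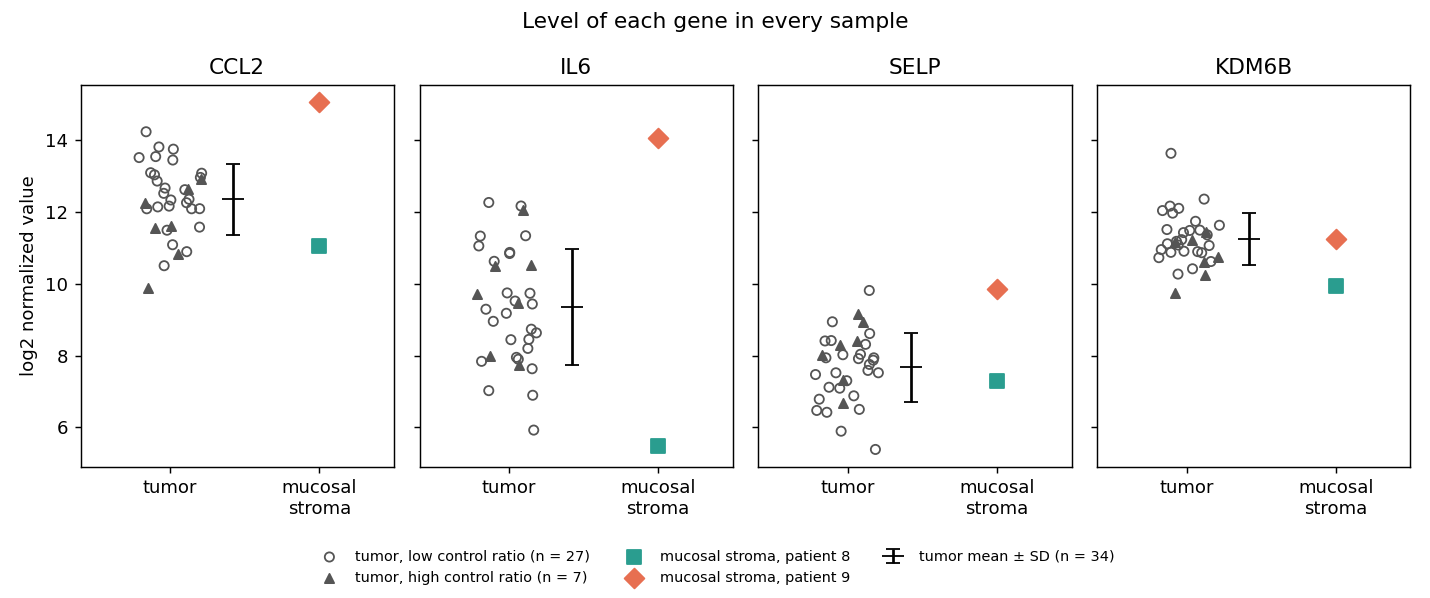
Log2 normalized value (vertical axis) of CCL2, IL6, SELP and KDM6B in each sample, with open circles for the 27 tumors of low and filled triangles for the 7 tumors of high control ratio, bars for the tumor mean ± SD, and a square and a diamond for the mucosal stroma of patients 8 and 9. For CCL2, IL6 and SELP the diamond sits above all 34 tumors, and for IL6 the square sits below all 34.

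The mucosal stroma samples lay at opposite ends for IL6. The mucosal stroma of patient 8 held IL6 at 5.48, below all 34 tumors, and that of patient 9 held it at 14.07, above all 34. The difference of 8.59 on the log2 scale is 386-fold (counting interval of the log2 difference at 95%, 8.13 to 9.10). It was the largest in size of the 44 immune genes. IL6 was counted 37 times in the sample of patient 8, against a background of 16.4 counts, and 15977 times in that of patient 9. The lower value is thus above background, though not by far.

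CCL2 was at 11.06 in the sample from patient 8 and 15.06 in the sample from patient 9, a difference of 4.00 (counting interval 3.93 to 4.07). All 34 tumors lay below the second value and 30 lay above the first. SELP was at 7.30 and 9.85, a difference of 2.55 (counting interval 2.28 to 2.83). All 34 tumors lay below the value of patient 9, the closest at 9.82, whereas that of patient 8 had 24 tumors above it and 10 below. KDM6B was at 9.93 and 11.25, a difference of 1.32 (counting interval 1.20 to 1.44). Its value in patient 9 fell inside the tumors, with 14 above and 20 below, and that of patient 8 had 33 tumors above it. In units of the tumor SD, the sample of patient 9 was 2.94 from the tumor mean for IL6, 2.71 for CCL2, 2.28 for SELP and 0.0031 for KDM6B. These intervals cover counting error only, and with 1 sample on each side there is no test.

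The difference of all 4 genes went the same way, which is how they were chosen, and 38.6% of the 44 immune genes differed by over 1 in size between these samples. Of the 44 genes, 28 were higher in patient 9 and 16 lower. Higher by over 1 were 10 genes, the 4 among them, and 7 were lower by over 1. Over all 44 genes the median difference was 0.30, and over the 4 genes it was 3.27. IL8, a chemokine that draws neutrophils, was also higher in the mucosal stroma of patient 9, by 5.60, while CXCL2, which acts on the same receptor, was higher by 0.67. Of the 9 cytokines and chemokines on the panel beside CCL2 and IL6, with IL8 and CXCL2 among them, 6 were higher in patient 9 and 3 lower, with a median of 0.45. Markers of T cells went the other way. All 4 (CD3e, CD8a, CD27 and CD28) were lower in the sample of patient 9, with a median of -1.44 and with CD3e lower by 2.13 on the log2 scale. CD8a differed by -0.37. The 3 cytotoxic genes GZMA, GZMB and PRF1 had higher values in patient 9, with a median of 0.89. The counting interval was 0.34 to 1.72 for GZMB, -0.19 to 1.00 for GZMA and -0.08 to 1.92 for PRF1. NCR1 of NK cells (0.34, counting interval -0.81 to 1.54) and Pax5 of B cells (0.59, counting interval -0.35 to 1.58) had higher values too. For GZMA, PRF1, NCR1 and Pax5 the interval includes no difference, so the counts do not set a direction. In patient 8, PRF1, NCR1 and Pax5 had 14, 12 and 16 counts, below the background of 16.4. NCR1 was below background in patient 9 too, at 17 counts against 19.0. GATA3, a transcription factor of type 2 helper T cells that epithelia express too, differed by -5.17. The part of a different cell makeup in the 4 genes was not tested.

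**Figure D2:**
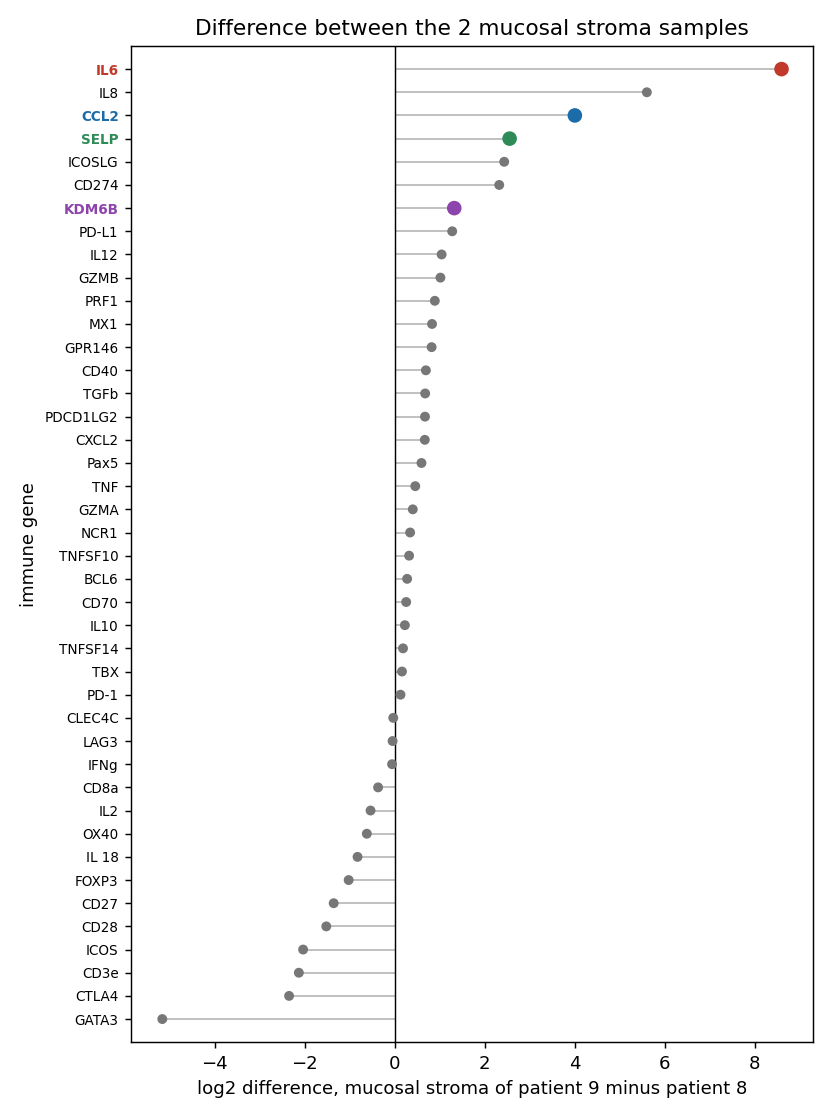
Log2 difference between the mucosal stroma samples, patient 9 minus patient 8, for 42 of the 44 immune genes in order of size, with CCL2, IL6, SELP and KDM6B in color. IL6 (8.59) is at the top, IL8 (5.60), CCL2 (4.00) and SELP (2.55) follow, KDM6B (1.32) is in the upper part, and GATA3 (-5.17) is at the bottom.

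Tumors were then compared with mucosal stroma, the comparison by which the study asked how the tumor immune environment differs from normal oral mucosa. None of the 4 genes was called (limma, Benjamini-Hochberg adjustment over 44 genes, threshold 0.05), where 34.1% of all 44 genes were, 31.8% higher and 2.27% lower in tumors. The 15 calls were 14 higher and 1 lower, and with each sample centred on the same median of its immune genes (equal medians) they were 5 higher and 7 lower. The difference between the mucosal stroma samples, by which the genes were chosen, is part of the error of this contrast. The log2 fold change, tumor minus mucosal stroma, was -0.71 for CCL2 (standard error 0.78, limma adjusted p = 0.480) and -0.42 for IL6 (standard error 1.30, limma adjusted p = 0.798). It was -0.91 for SELP (standard error 0.71, limma adjusted p = 0.318) and 0.66 for KDM6B (standard error 0.56, limma adjusted p = 0.336). The 95% interval ran from -3.04 to 2.20 for IL6, so that a large difference either way is within it. No member reached an unadjusted p below 0.05, and the exact permutation test over 630 splits called none either, with a lowest adjusted p of 0.319.

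The tumors and mucosal stroma samples overlapped for each of the 4 genes, and 15.9% of the 44 genes had no overlap. For IL6 all 34 tumors lay between the mucosal stroma samples, as did 30 of 34 for CCL2, 24 for SELP and 19 for KDM6B. The median log2 fold change was -0.56 over the 4 genes against 0.91 over all 44. Of the 9 cytokines and chemokines beside CCL2 and IL6, 2 were called, both higher in tumors, namely CXCL2 and IL8. Among the other transcription regulators, FOXP3, which marks regulatory T cells, was called higher in tumors. None of the 4 T cell markers was called, with a median of 2.13. The limma adjusted p was 0.0535 for CD3e, 0.0675 for CD27, 0.155 for CD8a and 0.318 for CD28. The paper, in its own comparison, reported CD8a as significantly higher in tumors.

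For CCL2, IL6 and SELP the direction was set by which mucosal stroma sample was used. With only the sample of patient 9 the log2 fold change of IL6 was -4.71, whereas with only that of patient 8 it was 3.88. CCL2 was at -2.71 with only the sample of patient 9 and at 1.29 with only that of patient 8. SELP was at -2.18 and 0.37 and KDM6B at -0.00221 and 1.32 in the same order. The genes were chosen by the gap between these samples, so the values against a single sample are a description, with no test. Among the high control ratio samples alone, the differences were -1.38 for CCL2, -0.06 for IL6, -0.46 for SELP and 0.15 for KDM6B, with exact two-sided permutation p-values from 0.278 to 1, where 7 tumors against 2 samples allow no p below 0.0278. With equal medians, which shifts the difference of every gene by -1.21, CCL2 was called lower in tumors (log2 fold change -1.91, limma adjusted p = 0.0426) and KDM6B changed sign to -0.55.

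**Figure D3:**
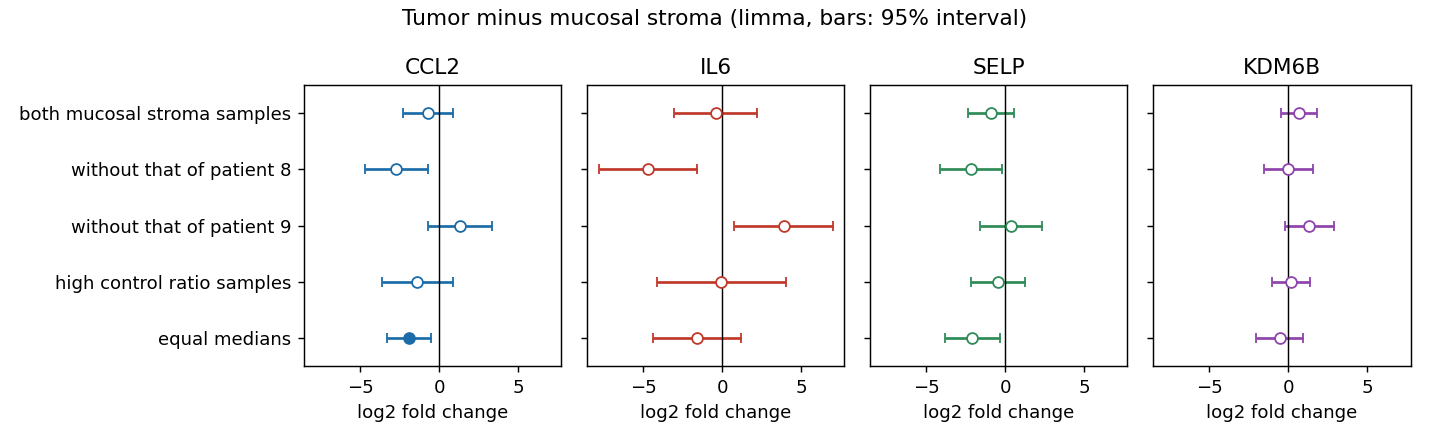
Log2 fold change of tumor minus mucosal stroma (horizontal axis) for each gene from limma, with 95% intervals, for both mucosal stroma samples, without either one, for the high control ratio samples alone and after rescaling to equal medians, where a filled point has an adjusted p below 0.05 and points with 1 mucosal stroma sample left out are open, as they are not tested. The points of IL6 lie at -4.71 and 3.88 when one or the other mucosal stroma sample is left out.

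Across the tumors, the 4 genes did not move as 1 group. The median of their 6 pairwise Pearson correlations over 34 tumors was 0.07, against 0.20 over all 946 pairs of immune genes. IL6 and SELP were the pair that rose and fell together, with r = 0.62 and Spearman's rho = 0.61. In 24 of 34 tumors they lay on the same side of their medians, and 113 of the 946 pairs (11.9%) had an r at least as high. CCL2 with IL6 had r = 0.27 and rho = 0.24. CCL2 with KDM6B had r = -0.33 and rho = -0.33, which turned to r = 0.25 with scaling on the positive controls. The other three pairs were near 0, with r of -0.03 for CCL2 and SELP, 0.02 for IL6 and KDM6B, and 0.12 for SELP and KDM6B. They depended on the scaling, at 0.51 for SELP and KDM6B and 0.29 for IL6 and KDM6B with equal medians and at 0.37 for SELP and KDM6B and 0.32 for CCL2 and SELP with scaling on the positive controls. SELP and KDM6B had r = 0.62 in the 7 tumors of high control ratio. All values of a sample share 1 scaling factor, which can move all its genes together. Scaling on the positive controls leaves RNA input uncorrected, which can do the same. In 5 tumors all 4 genes were above their medians and in 2 all were below.

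The r of IL6 and SELP was high in the low control ratio tumors and near 0 in the 7 of high control ratio, too few to fix an r. Among the 27 low control ratio tumors r was 0.73 and among the other 7 it was 0.01, a gap that was not tested. Without the tumors of patients 28 and 34, the farthest from the median of IL6, it was 0.50. With the relation to depth removed from both genes it was 0.57, and with the immune genes of each tumor centred on an equal median it was 0.69. CCL2 and IL6 had r = 0.84 in the 7 tumors of high control ratio.

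**Figure D4:**
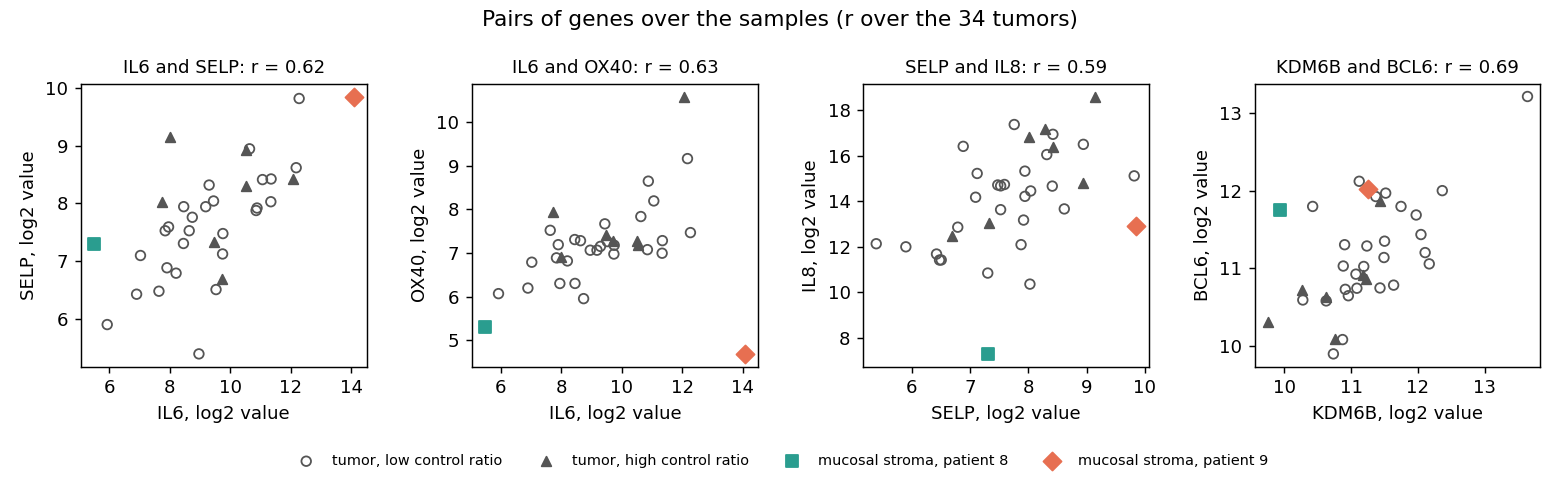
Log2 values of IL6 against SELP, IL6 against OX40, SELP against IL8 and KDM6B against BCL6, with open circles for tumors of low and filled triangles for tumors of high control ratio, and a square and a diamond for the mucosal stroma of patients 8 and 9. Over the 34 tumors r is 0.62, 0.63, 0.59 and 0.69. For OX40 the diamond lies far from the tumors, at the highest IL6 with OX40 at 4.69 (24 counts, against a background of 19.0).

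Each of the 4 genes was next compared with the other 40 immune genes across the tumors, 160 pairs in all, which the choice of genes did not use. At a permutation p adjusted over the 160 pairs below 0.05, 13 pairs were called, 11 positive and 2 negative. The split was 22 positive and 19 negative with equal medians and 59 positive and 0 negative with scaling on the positive controls. The latter scaling does not correct for the RNA input of a sample, which can move all its genes the same way. Its part in the 59 was not tested. The 13 pairs are 8.12% of the 160, and 34 had an unadjusted p below 0.05. The smallest r called was 0.48 in size, and 26.7% of the 780 pairs among the other 40 genes were at least as large. None of the 40 genes was called with more than 1 of the 4.

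IL6 was most like OX40, a costimulatory receptor of activated T cells, with r = 0.63 and rho = 0.56 (permutation adjusted p = 0.0016 for r and 0.0360 for rho). Its r was 0.63 without the farthest tumors and 0.61 and 0.67 within the high and low control ratio tumors. OX40 itself ranged from 5.96 to 10.59 in tumors and was at 5.31 and 4.69 in the mucosal stroma of patients 8 and 9, so the sample with the highest IL6 had the lowest OX40. IL6 and MX1, an interferon-induced antiviral gene, went in opposite directions with r = -0.52 and rho = -0.48 (permutation adjusted p = 0.0291 for r and 0.0721 for rho). The third gene most like IL6 was GPR146, an orphan receptor, at r = 0.39 and rho = 0.46, which was not called (permutation adjusted p = 0.135 and 0.0774).

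SELP was most like IL8, with r = 0.59 and rho = 0.61 (permutation adjusted p = 0.00928 and 0.0152). This r was 0.60 without the farthest tumors and 0.79 and 0.50 within the high and low control ratio tumors. CXCL2, the other neutrophil chemokine, had r = -0.10 with SELP. BCL6 (r = 0.45, rho = 0.44) and IL12 (r = -0.42, rho = -0.26) came next for SELP and were not called (permutation adjusted p = 0.0874 and 0.129 for r).

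KDM6B was most like BCL6, a transcriptional repressor of germinal center B cells and follicular helper T cells, with r = 0.69 and rho = 0.69 (permutation adjusted p = 0.0016 and 0.0032). Without the tumors of patients 1 and 20 it was 0.51, no longer called (permutation adjusted p = 0.0976). The tumor of patient 20 had the highest level of both genes, 13.64 for KDM6B and 13.22 for BCL6. Within the high and low control ratio tumors r was 0.67 and 0.65. KDM6B went against TNFSF10, the death ligand TRAIL, with r = -0.52 and rho = -0.46 (permutation adjusted p = 0.0285 and 0.0774), a sign that turned to r = 0.34 when samples were scaled on the positive controls. PD-L1 followed at r = 0.38 and rho = 0.23 and was not called (permutation adjusted p = 0.174 and 0.532). It was called with equal medians (r = 0.60, permutation adjusted p = 0.0024) and with scaling on the positive controls (r = 0.65, permutation adjusted p = 0.000704). The panel also holds a probe named CD274, the official symbol of the PD-L1 gene. That probe was less like KDM6B, at r = 0.13 and rho = 0.12 (permutation adjusted p = 0.673 and 0.775). With equal medians its r was 0.40.

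CCL2 had 8 of the 13 called pairs, all positive. Among its closest genes were the T cell costimulatory receptor CD28 (r = 0.58, rho = 0.52) and PDCD1LG2 (r = 0.57, rho = 0.55), which encodes the PD-1 ligand PD-L2. The permutation adjusted p for r was 0.00928 and 0.0131, and for rho 0.0489 and 0.0360. TBX, CD40, CD3e, IL10 and CD8a were called too, with r from 0.48 to 0.55 and rho from 0.47 to 0.51. By rho, IL10 was called (permutation adjusted p = 0.0489), and TBX, CD40, CD3e and CD8a were not (permutation adjusted p from 0.0690 to 0.0721). Of the 4 T cell markers 3 were called with CCL2 by r and 1, CD28, by rho, with a median r of 0.50, and none was called with IL6, SELP or KDM6B, whose medians were -0.15, -0.19 and -0.25. Over all 40 genes, 8 were called with CCL2 by r, with a median r of 0.30. The medians over the 40 were -0.05 for IL6, -0.10 for SELP and -0.06 for KDM6B. Whether these coefficients differ from each other was not tested. The 3 cytotoxic genes GZMA, GZMB and PRF1 were not called with any of the 4 genes. CLEC4C of plasmacytoid dendritic cells, NCR1 of NK cells and Pax5 of B cells were not called either.

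Some of these relations depended on the scaling. With equal medians, none of the 8 pairs of CCL2 was called and neither was either negative pair, and the r of CCL2 was 0.10 with CD28. The pairs called under all 3 other scalings were IL6 with OX40, SELP with IL8 and KDM6B with BCL6. Without the 2 tumors farthest from the median of the gene compared, only the first and the second of these stayed called among the 13. All 13 pairs kept their sign within the high control ratio tumors and within the low ones. The pairs were picked by r over these same tumors, most of them of low control ratio, so a kept sign is no test. Within the low control ratio tumors 2 pairs were called, and within the high ones 0.

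**Figure D5:**
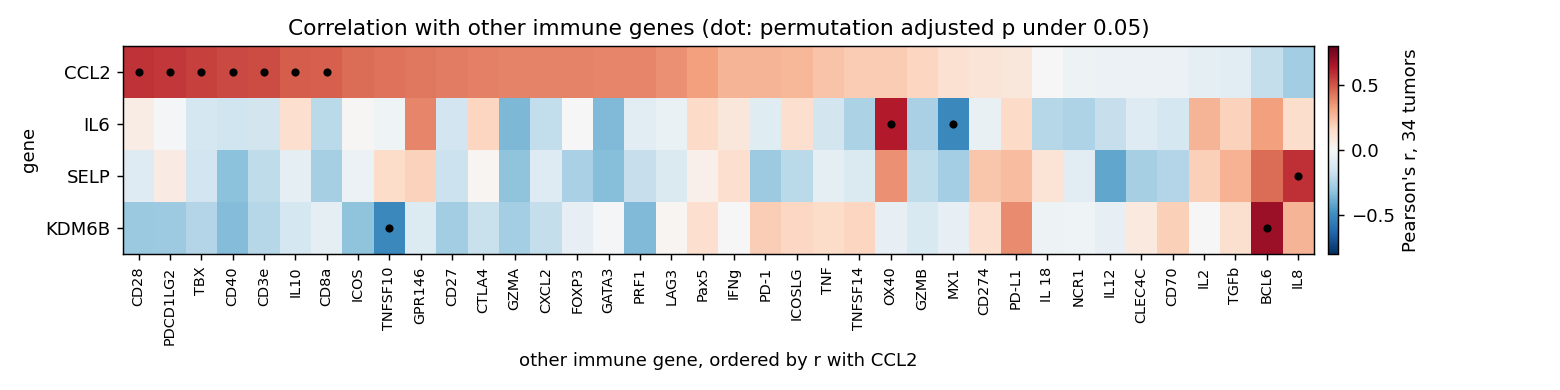
Pearson's r over 34 tumors (color, from blue for negative to red for positive) of CCL2, IL6, SELP and KDM6B with 38 of the other 40 immune genes, ordered by r with CCL2, with a dot where the permutation adjusted p is below 0.05. CCL2 has 7 dots here, IL6 and KDM6B have 2 each and SELP has 1, and no column has more than 1 dot.

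Depth moved with IL6, whose level is itself scaled by depth. The log2 level of IL6 was lower in tumors with more housekeeping counts (r = -0.49, rho = -0.44, permutation adjusted p over 4 genes = 0.0137 and 0.0435). Without the 2 tumors of extreme depth this was -0.38 and was not called (permutation adjusted p = 0.0797). The same r was 0.08 for CCL2, -0.30 for SELP and -0.37 for KDM6B, with rho of 0.22, -0.35 and -0.29, and none was called. Each level is a count divided by this same depth, so error in the depth alone can push r below 0. The permutation p does not allow for that shared factor, and its part in the r of IL6 was not tested. With depth removed, IL6 and OX40 (r = 0.58), SELP and IL8 (r = 0.59) and KDM6B and BCL6 (r = 0.63) were still called, whereas IL6 and MX1 (r = -0.37, permutation adjusted p = 0.168) and KDM6B and TNFSF10 (r = -0.41, permutation adjusted p = 0.129) were not.

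None of the 4 genes was called between the tumors of low and high control ratio (limma), where 2.27% of the 44 genes were. CCL2 was at 12.53 ± 0.92 (SD, n = 27) and 11.68 ± 1.06 (SD, n = 7), a difference of 0.85 (limma adjusted p = 0.129), and KDM6B was at 11.38 ± 0.70 and 10.74 ± 0.60, a difference of 0.64 (limma adjusted p = 0.135). Both had an unadjusted p below 0.05, at 0.0388 and 0.0462 by limma. IL6 and SELP differed by -0.45 and -0.56 (limma adjusted p = 0.648 and 0.330).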

How the data were processed

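RNA from 34 tumor and 2 mucosal stroma samples was counted by the authors on an nCounter FLEX system with a custom panel of 44 immune and 4 housekeeping genes, 6 positive and 6 negative controls, and analysed in nSolver, whose version is not given in the sources used here. The authors deposited a normalized signal per gene (counts times 1 housekeeping factor per sample) and unscaled controls. Dividing by that factor gave whole counts for 1712 of 1728 values (99.1%, tolerance 0.01), which served for depth and for background (negative control mean plus 2 SD). Signals were taken to log2 with no pseudocount and no filter.

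limma 3.58.1 in R 4.3.3 compared groups over the 44 genes. Permutation tests (two-sided) used 100000 resamples for correlations, all 630 splits for groups and every order for 7 tumors. Other steps ran in Python 3.11.15 (matplotlib 3.10.9, scipy 1.17.1, pandas 2.3.3, numpy 2.4.6), and the fits were tested on simulated data. Control ratio sets were divided at 2. The members and gene lists were chosen with earlier results of these data known. Named genes are the members, the 3 genes with the largest r in size for each, and the listed genes. CD40 and CD274 were named after their values were seen. Alternatives were other scalings, pseudocounts, a floor, other tests and samples left out. A few genes that entered every fit and count are not described by name.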

Additional observations from a re-analysis of the deposited data

How the results depend on the processing

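Of 195 recomputed main values, 155 kept their direction and their side of the threshold or moved by less than their error. The number of genes called between tumor and mucosal stroma, 15, fell to 7 with the control ratio set as a term, to 9 in the high control ratio samples alone, and to between 4 and 7 without 1 of the mucosal stroma samples. Without 1 mucosal stroma sample, the log2 fold change ran from -2.71 to 1.29 for CCL2, from -4.71 to 3.88 for IL6, from -2.18 to 0.37 for SELP and from -0.00221 to 1.32 for KDM6B. After rescaling to equal medians it was -1.91 for CCL2, now called, and -0.55 for KDM6B.

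The 13 called pairs became 41 after rescaling to equal medians (22 positive), of which 3 were among the 13. With positive control scaling, which does not correct for RNA input, 59 were called (all positive), of which 11 were among the 13. The called pairs became 7 by rank correlation, 2 within the low control ratio tumors and 3 without the 2 farthest tumors. Within the 7 high control ratio tumors they became 0, where 20 pairs had an unadjusted exact p below 0.05. KDM6B and TNFSF10 turned to 0.34 with positive control scaling, and KDM6B and PD-L1 to -0.36 in the high control ratio tumors. The relation of IL6 to depth was -0.38 without the 2 farthest tumors.

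Among the members, equal medians gave r of -0.11 for CCL2 and KDM6B, 0.29 for IL6 and KDM6B and 0.51 for SELP and KDM6B. Positive control scaling gave 0.32 for CCL2 and SELP, 0.25 for CCL2 and KDM6B and 0.37 for SELP and KDM6B. The 7 high control ratio tumors gave 0.84 for CCL2 and IL6, 0.0127 for IL6 and SELP, -0.24 for IL6 and KDM6B and 0.62 for SELP and KDM6B. The 27 others gave -0.59 for CCL2 and KDM6B and 0.73 for IL6 and SELP. With depth removed, IL6 and KDM6B had -0.20. The cause of these shifts was not tested.

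The difference between the mucosal stroma samples was 4.11 for CCL2 with equal medians, 4.15 for CCL2 and 1.47 for KDM6B with positive control scaling, 4.32, 2.87 and 1.64 for CCL2, SELP and KDM6B with housekeeping scaling without SDHA, and 8.06 for IL6 with a pseudocount of 20. Genes called between control ratio sets were 1 in the main fit, 2 with equal medians and 6 with positive control scaling. Leaving out the 3 tumors with a total count under 60000 and removing depth were chosen after seeing the data. The planned count test on recovered counts was not run. No paired analysis was possible because the labels do not show which samples share a dog.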

Other observations

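Of the 561 tumor pairs, patients 33 and 34 gave the most similar values, on average 0.19 apart on the log2 scale (44 immune genes, absolute differences), and the pair after them was 0.51 apart. IL6 and SELP were among the genes that set them most apart. IL6 was at 6.90 and 5.93 in these tumors (164 and 95 counts), a difference of 0.97 that ranked 2 of 44, and SELP was at 6.42 and 5.90 (118 and 93 counts), a difference of 0.53 that ranked 3. CCL2 differed by 0.12 and KDM6B by 0.13. The labels number them as separate patients, as they do all 36 samples, though the study counted fewer dogs than samples. Whether these tumors share a dog cannot be told from the labels.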
